A study of Mus musculus with 7 samples.

Results

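The inflammatory chemokine receptors examined here are Ccr1, Ccr2, Ccr3, Ccr4, Ccr6, Ccr8, Cxcr3 and Cxcr6, 8 genes of the 18193 that the arrays name. They were taken by name, with every probe set whose annotation names only 1 of them, which gave 13 probe sets. The RNA came from CD4+ T cells that were taken from male mice at an age of 3 weeks, out of peripheral lymph nodes, sorted for CD3 and CD4 after depletion of cells bearing B220, CD8, CD11b, CD11c or NK1.1, and was hybridised to 7 Affymetrix arrays. The Sf.Il2-/- group (3 arrays) came from scurfy mice that also carry a null Il2 gene, the Il2tm1Hor allele from the strain B6.129P2-Il2tm1Hor/J. The Sf group (3 arrays) came from scurfy mice, B6.Cg-Foxp3sf/J, whose Foxp3 mutation the Sf.Il2-/- mice share. The B6 group is 1 array of C57BL/6 cells, with RNA from the lymph nodes of 2 mice pooled, so it has no spread of its own. The null Il2 allele is in the germline, so cells other than the sorted ones carry it too.

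Chemokine receptors are G protein coupled receptors that steer leukocytes along gradients of chemokines. Naive T cells carry receptors that keep them circulating through lymph nodes, and activated T cells acquire the inflammatory receptors, which direct them into skin, lung, liver and other inflamed tissue. Ccr1 and Ccr2 are also strongly used by monocytes and, for Ccr1, neutrophils. Ccr4 and Ccr8 are associated with Th2 and regulatory T cells, Cxcr3 with Th1 cells and Ccr6 with Th17 cells. Cxcr6 marks effector and tissue-resident T cells, and Ccr3 is the eotaxin receptor of eosinophils.

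Values are the authors' processed intensities as log2(intensity + 1). A value under 4 is called near the floor and under 5 dim, and each gene is represented by its brightest probe set unless another is named. Levels of different probe sets are not compared with each other. The median intensity was 29.3 to 32.4 and the upper quartile 110 to 145 over the arrays. Sf replicate 3, Sf.Il2-/- replicate 3 and the B6 array had the higher upper quartiles and are called array set 2, and the other 4 arrays are called array set 1. The labels do not name these sets. Foxp3, as a check of the labels, read 4.41, 4.20 and 4.24 in Sf.Il2-/-, against 6.04, 5.87 and 6.32 in Sf and 7.25 in B6. Il2 read 7.17, 8.20 and 7.74 in Sf.Il2-/-, against 5.39, 5.09 and 7.35 in Sf and 5.22 in B6, so the probe set of the targeted gene was not lower in the null group. The position of that probe set relative to the Il2tm1Hor disruption is not stated, so its value checks nothing about the allele. The 9 markers of CD4 T cells with a probe set were all above 9 in every array, and their summed intensity was 19287 to 20582 in Sf.Il2-/-, 11091 to 15838 in Sf and 22739 in B6. This sum moves with the groups, and its part in the differences below was not tested. The summed intensity of 7 NK cell markers was 488 to 649 in Sf.Il2-/-, 578 to 811 in Sf and 225 in B6. Of these 7, Gzma was the brightest in every mutant array, at 8.86, 7.99 and 8.95 in Sf.Il2-/-. It read 9.13, 8.37 and 9.19 in Sf and 5.94 in B6. Ncr1 and Klrc2 were under 4 in every array and Klre1 was between 6.28 and 6.79 in every array. Tyrobp was between 4.27 and 5.62 and Fcer1g between 4.73 and 5.69 over the arrays. Klrk1 was at most 4.30 in Sf.Il2-/-, against 5.96, 5.84 and 6.18 in Sf and 4.66 in B6, so it was highest in Sf. The part of such cells in the members' values was not tested. In sorted bulk RNA, fewer cells that express a receptor and less RNA per expressing cell cannot be told apart.

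Ccr1, Ccr2 and Cxcr6 rose in Sf relative to B6, and Ccr1 was the 1 member that fell in Sf.Il2-/- relative to Sf. These 3 genes and Ccr3 lie in 1 cluster on chromosome 9 in the GRCm38.p6 annotation. Their order is Cxcr6, Xcr1, Ccr1, Ccr1l1, Ccr3 and Ccr2, leaving out noncoding genes, a pseudogene and Fyco1, whose span holds Cxcr6. Ccr4 and Ccr8 are on the same chromosome outside this cluster. Because the 3 called members moved together in Sf, their RefSeq promoter windows are shown, each from 250 bases before to 50 bases after the gene start on GRCm38.p6, 5' to 3' on the gene's strand. Capitals mark matches to 4 motifs searched on both strands. The STAT motif was TTCNNNGAA. The AP-1 motif was TGAGTCA, found also as its reverse complement. The motif of GATA factors was AGATAA. The motif of T-box factors was TCACAC. Any 2 matches shown do not overlap. The windows are chr9:123968643-123968942 on the minus strand for Ccr1, chr9:124101933-124102232 on the plus strand for Ccr2 and chr9:123806227-123806526 on the plus strand for Cxcr6.
Ccr1: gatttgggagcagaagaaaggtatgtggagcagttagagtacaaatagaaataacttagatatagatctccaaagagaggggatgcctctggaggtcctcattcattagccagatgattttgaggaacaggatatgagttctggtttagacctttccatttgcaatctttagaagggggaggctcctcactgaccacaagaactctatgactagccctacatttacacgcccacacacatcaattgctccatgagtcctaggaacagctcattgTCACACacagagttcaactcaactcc
Ccr2: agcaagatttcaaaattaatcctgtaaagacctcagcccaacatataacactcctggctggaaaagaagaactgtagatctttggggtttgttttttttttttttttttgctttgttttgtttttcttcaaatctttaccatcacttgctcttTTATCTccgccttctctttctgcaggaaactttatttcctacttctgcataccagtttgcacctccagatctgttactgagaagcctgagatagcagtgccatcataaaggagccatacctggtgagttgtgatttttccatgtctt
Cxcr6: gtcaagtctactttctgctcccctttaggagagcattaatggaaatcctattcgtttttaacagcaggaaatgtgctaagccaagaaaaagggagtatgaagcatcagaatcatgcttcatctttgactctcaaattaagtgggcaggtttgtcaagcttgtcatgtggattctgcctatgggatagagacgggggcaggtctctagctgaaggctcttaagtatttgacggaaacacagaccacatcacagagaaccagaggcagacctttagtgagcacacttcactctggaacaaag

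The Ccr1 window held 1 T-box match, which starts at base 25 after the gene start, and the Ccr2 window held 1 GATA match, which starts 97 bases before it. The Cxcr6 window held none of these letters. Over all 32851 windows of this length in the table, 14.5% held the T-box letters, 11.2% the GATA letters, 5.2% the AP-1 letters and 8.3% the STAT letters. Among the other members the STAT letters occurred in 1 window, that of Ccr6 at chr17:8235793-8236092 on the plus strand, as TTCAAAGAA, which starts 157 bases before the gene start, and as TTCCAAGAA, which starts 120 bases before it. The AP-1 letters occurred in the windows of Ccr3 and Ccr4, and the T-box letters also in that of Cxcr3. The GATA letters occurred in 4 of the 9 member windows, those of Ccr2, Ccr3 and Ccr8 and the second of Ccr6. A match is a description of these letters and not a bound site.

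**Figure D1:**
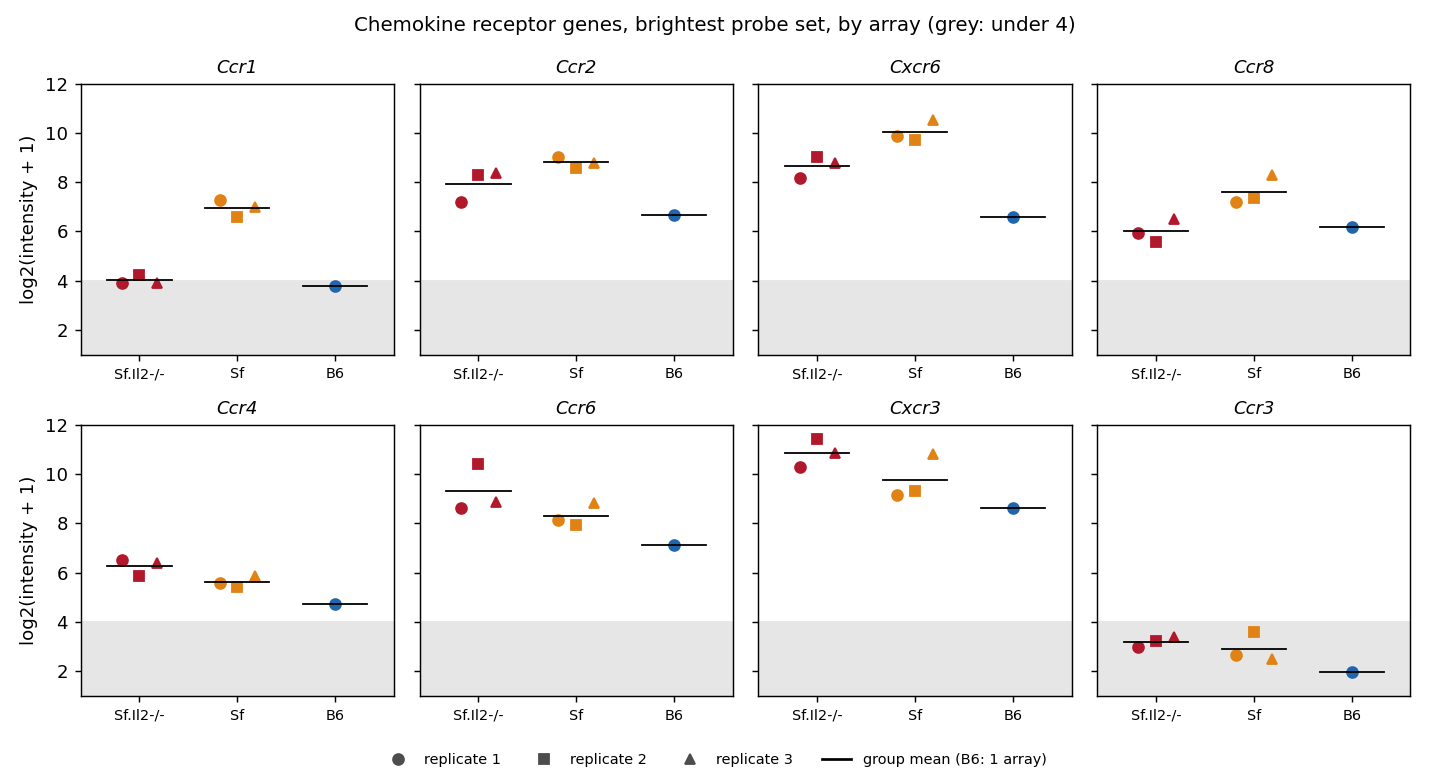
Level of the brightest probe set of each of the 8 members, as log2(intensity + 1), in the Sf.Il2-/-, Sf and B6 arrays. Points are arrays, marker shapes are replicate numbers, horizontal lines are group means (the B6 line is 1 array) and grey marks values under 4. Ccr1 is near 4 in Sf.Il2-/- and B6 and between 6.59 and 7.26 in Sf, Cxcr6 is highest in Sf and intermediate in Sf.Il2-/-, and Ccr3 is under 4 in every array.

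Ccr1, a receptor for CCL3, CCL5 and related chemokines, was high in Sf alone. It read 3.92, 4.23 and 3.92 in Sf.Il2-/-, against 7.26, 6.59 and 6.97 in Sf and 3.78 in B6. The Sf arrays stood more than 2 units above every other array, and the Sf.Il2-/- arrays lay close to the B6 array at the edge of the floor. In Sf.Il2-/- relative to Sf it fell by 2.92 ± 0.26 (log2, SE, n = 3 and 3; limma adjusted p = 0.00212), a 7.56-fold difference. In Sf relative to B6 it rose by 3.16 ± 0.37 (SE, n = 3 and 1; adjusted p = 0.00503), an 8.92-fold difference. Sf.Il2-/- and B6 differed by 0.24, with a 95% interval of -0.60 to 1.08 (adjusted p = 0.778). Since 1 side of both larger differences lies at the floor, their sizes are not exact, and with a pseudocount of 16 they were -2.14 and 2.26. The difference from Sf was -2.85 within array set 1 and -3.06 within array set 2.

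The second probe set of Ccr1 was near the floor or dim in every array. It read 2.52, 3.01 and 2.78 in Sf.Il2-/-, against 3.78, 3.90 and 4.52 in Sf and 2.92 in B6. The Sf arrays read highest, but 6 of the 7 arrays were under 4, all except Sf replicate 3. Values this low carry no order, so this probe set adds little to the first. Myeloid cells carry Ccr1 and Ccr2, so their markers are given here. The summed intensity of 9 neutrophil markers was 441 to 903 in Sf.Il2-/-, 368 to 566 in Sf and 431 in B6. That of 9 monocyte and macrophage markers was 838 to 1294, 788 to 1106 and 973 in the same groups. The part of myeloid cells in the Ccr1 values was not tested. Without Sf replicate 1 and Sf.Il2-/- replicate 2, which had the highest neutrophil sums of their groups, Ccr1 differed by -2.86 (adjusted p = 0.000245) between Sf.Il2-/- and Sf.

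Cxcr6, the receptor for the membrane-bound chemokine CXCL16, was high in Sf, lowest in B6 and between them in Sf.Il2-/-. It read 8.19, 9.01 and 8.79 in Sf.Il2-/-, against 9.86, 9.72 and 10.51 in Sf and 6.59 in B6. No array of one group lay within another group. In Sf it was 3.44 ± 0.40 above B6 (log2, SE, n = 3 and 1; adjusted p = 0.00495), a 10.8-fold rise. In Sf.Il2-/- it was 2.07 ± 0.40 above B6 (adjusted p = 0.0336), a 4.20-fold rise, which was 1.90 (adjusted p = 0.0804) without Sf.Il2-/- replicate 2 and 2.00 (adjusted p = 0.0748) without Sf.Il2-/- replicate 3. Sf.Il2-/- and Sf differed by -1.37 ± 0.29 (95% interval -2.01 to -0.73; adjusted p = 0.149), which did not pass. With the array set as a block it passed (adjusted p = 0.0484), and it was -1.13 (adjusted p = 0.0312) without Sf replicate 3.

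The other probe set of Cxcr6 gave the same order, with 7.95, 8.63 and 8.91 in Sf.Il2-/-, against 9.89, 9.63 and 10.34 in Sf and 6.79 in B6. In a fit with each of 20617 probe sets as a row it was 3.17 higher in Sf than in B6 (adjusted p = 0.011), and its difference of 1.71 between Sf.Il2-/- and B6 did not pass (adjusted p = 0.0769). In the annotation Cxcr6 lies within the span of Fyco1, a gene of vesicle transport. Fyco1 read 6.94, 7.37 and 7.93 in Sf.Il2-/-, against 7.08, 6.68 and 8.14 in Sf and 8.38 in B6 at its brighter probe set. The second probe set of Fyco1 read 5.89, 5.79 and 5.56 in Sf.Il2-/-, against 5.39, 5.67 and 6.30 in Sf and 5.99 in B6, so the probe sets differ in which array is highest.

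Ccr2, the receptor for CCL2, rose in Sf. It read 7.18, 8.30 and 8.35 in Sf.Il2-/-, against 9.03, 8.58 and 8.79 in Sf and 6.68 in B6. The mutant groups did not overlap, although Sf.Il2-/- replicates 2 and 3 lay just under the lowest Sf array and replicate 1 lay closer to B6. In Sf it was 2.12 ± 0.45 above B6 (SE, n = 3 and 1; adjusted p = 0.0437), a 4.36-fold rise that was close to the threshold. It was 2.01 (adjusted p = 0.0967) without Sf replicate 1 and 2.12 (adjusted p = 0.0525) without Sf.Il2-/- replicate 3. It passed in 11 of 17 other settings with a test. In the fit of all probe sets this probe set had an adjusted p of 0.0575. The difference of Sf.Il2-/- from B6 was 1.27 (95% interval 0.26 to 2.28; adjusted p = 0.184), and that from Sf was -0.86 (95% interval -1.57 to -0.14; adjusted p = 0.515), neither past the threshold. The difference from Sf was -0.47 without Sf.Il2-/- replicate 1 and -0.44 within array set 2.

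Ccr2 has 4 probe sets, and they did not give the same size of difference. The second read 6.60, 7.59 and 7.12 in Sf.Il2-/-, against 8.19, 8.06 and 7.90 in Sf and 5.49 in B6, and was 2.55 higher in Sf than in B6 in the fit of all probe sets (adjusted p = 0.0155). The third read 5.91, 5.80 and 6.25 in Sf.Il2-/-, against 6.24, 6.18 and 6.09 in Sf and 5.77 in B6. It was nearly flat, with 0.40 between Sf and B6 (adjusted p = 0.439). The fourth was dim, at 3.16, 3.53 and 4.30 in Sf.Il2-/-, against 4.57, 4.16 and 4.31 in Sf and 2.71 in B6. The specificity of the probes for each of these related receptors was not tested.

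**Figure D2:**
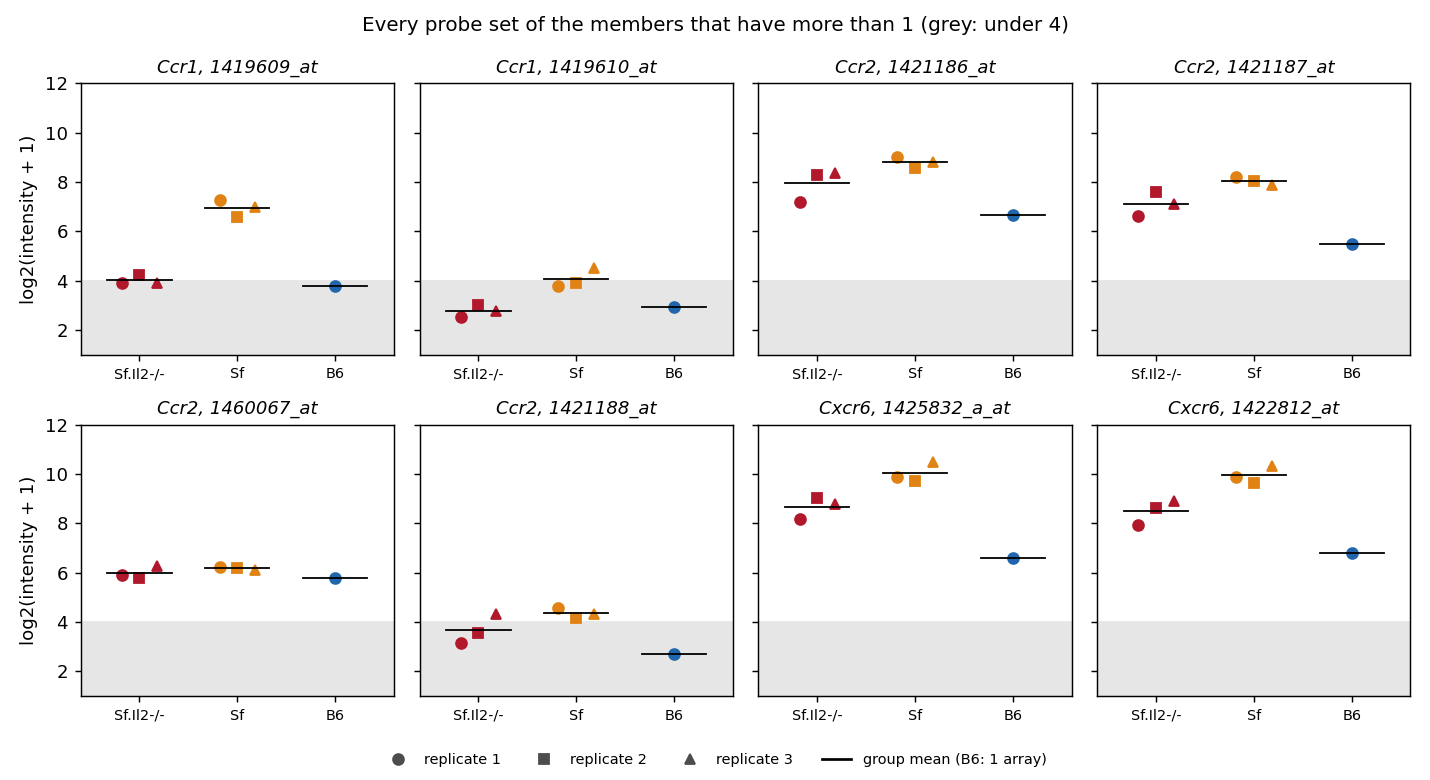
Every probe set of the 3 members that have more than 1 (2 of Ccr1, 4 of Ccr2 and 2 of Cxcr6), as log2(intensity + 1), by array, with Sf.Il2-/- left, Sf in the middle and B6 right. Lines are group means and grey marks values under 4. The Cxcr6 probe sets give the same order of groups, the third Ccr2 probe set lies between 5.77 and 6.25 in every array, and the second Ccr1 probe set does not exceed 4.52.

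Ccr8, the receptor for CCL1, was higher in each Sf array than in any Sf.Il2-/- array or in B6. It read 5.95, 5.56 and 6.50 in Sf.Il2-/-, against 7.19, 7.35 and 8.29 in Sf and 6.17 in B6. The B6 value lay inside the range of Sf.Il2-/-. The difference between Sf.Il2-/- and Sf was -1.61 ± 0.33 (95% interval -2.35 to -0.86; adjusted p = 0.146), which did not pass. With the replicate numbers as a block it did (adjusted p = 0.00796), although no label pairs the arrays by number. The difference passed with the array set as a block too (adjusted p = 0.00362), and was -1.52 within array set 1 and -1.79 within set 2. Sf was 1.44 above B6 (95% interval 0.39 to 2.49; adjusted p = 0.128), and this difference was 2.12 within array set 2 and 2.03 (adjusted p = 0.00477) with the array set as a block. Without Sf replicate 3 both differences passed, at -1.27 (adjusted p = 0.0308) from Sf and 1.10 (adjusted p = 0.0451) between Sf and B6. Sf.Il2-/- and B6 differed by -0.17 (95% interval -1.22 to 0.89; adjusted p = 0.888), and by 0.33 within array set 2.

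Ccr4, Ccr6 and Cxcr3 had their highest group mean in Sf.Il2-/- and their lowest value in B6, and none of their differences passed. Ccr4, the receptor for CCL17 and CCL22, read 6.53, 5.88 and 6.40 in Sf.Il2-/-, against 5.57, 5.44 and 5.87 in Sf and 4.71 in B6. The mutant groups did not overlap, but the lowest Sf.Il2-/- array and the highest Sf array were nearly equal. Sf.Il2-/- was 1.56 ± 0.35 above B6 (adjusted p = 0.0505), just beyond the threshold, and 1.56 (adjusted p = 0.0136) without Sf replicate 3, which changes only the spread. With the array set as a block it was 1.75 (adjusted p = 0.0179). It was 0.64 above Sf (95% interval 0.09 to 1.20; adjusted p = 0.547), and Sf was 0.91 above B6 (95% interval 0.13 to 1.70; adjusted p = 0.17).

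Ccr6, the receptor for CCL20, read 8.63, 10.40 and 8.86 in Sf.Il2-/-, against 8.14, 7.94 and 8.83 in Sf and 7.13 in B6. Sf.Il2-/- replicate 2 stood above the other arrays, and the mutant groups overlapped. Sf.Il2-/- was 2.16 above B6 (95% interval 0.77 to 3.56; adjusted p = 0.115; 0.0344 without Sf replicate 3) and 0.99 above Sf (95% interval 0.01 to 1.98; adjusted p = 0.625). The difference from Sf was 1.48 within array set 1 and 0.02 within array set 2. Sf and B6 differed by 1.17 (95% interval -0.22 to 2.56; adjusted p = 0.288). Ccr6 is also a receptor of B cells, and the summed intensity of 8 B cell markers was 2274 to 2463 in Sf.Il2-/-, 1306 to 1990 in Sf and 3275 in B6. Most of it was Ighm, and 4 of the 8 were under 5 in every array. The part of B cells in the Ccr6 values was not tested. Sf.Il2-/- replicate 2 also has the highest summed neutrophil markers, and without it and Sf replicate 1 the difference of Sf.Il2-/- from Sf was 0.36.

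Cxcr3, the receptor for CXCL9 and CXCL10, read 10.28, 11.41 and 10.87 in Sf.Il2-/-, against 9.14, 9.32 and 10.82 in Sf and 8.62 in B6. Sf replicate 3 lay among the Sf.Il2-/- arrays, and the other 2 Sf arrays lay below them. Sf.Il2-/- was 2.24 above B6 (95% interval 0.87 to 3.61; adjusted p = 0.0988) and 1.09 above Sf (95% interval 0.12 to 2.06; adjusted p = 0.57). Within array set 1 the difference from Sf was 1.61 and within set 2 it was 0.05. Without Sf replicate 3 it passed against Sf, at 1.62 (adjusted p = 0.0192), and against B6, at 2.24 (adjusted p = 0.00606). With the array set as a block the difference from B6 was 2.77 (adjusted p = 0.0322). Sf and B6 differed by 1.15 (95% interval -0.23 to 2.52; adjusted p = 0.289), by 0.62 without Sf replicate 3 and by 2.20 within array set 2.

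Ccr3 was near the floor in every array. It read 2.99, 3.21 and 3.40 in Sf.Il2-/-, against 2.65, 3.61 and 2.48 in Sf and 1.97 in B6, and it did not reach the group mean of 5 needed to be tested. Values this low carry no order. Of 10 markers of eosinophils, basophils and mast cells, the cells known for Ccr3, 8 were under 5 in every array. In the cluster on chromosome 9, Xcr1 and Ccr1l1, which lie between Cxcr6, Ccr1 and Ccr3, were also low, at 2.58 to 4.64 for Xcr1 and 3.72 to 4.81 for Ccr1l1 over the 7 arrays. Among the genes listed in order for that cluster, values well above the floor were thus those of Cxcr6, Ccr2 and, in Sf, Ccr1. Fyco1, which was left out of that order, read 6.68 to 8.38 at its brighter probe set.

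**Figure D3:**
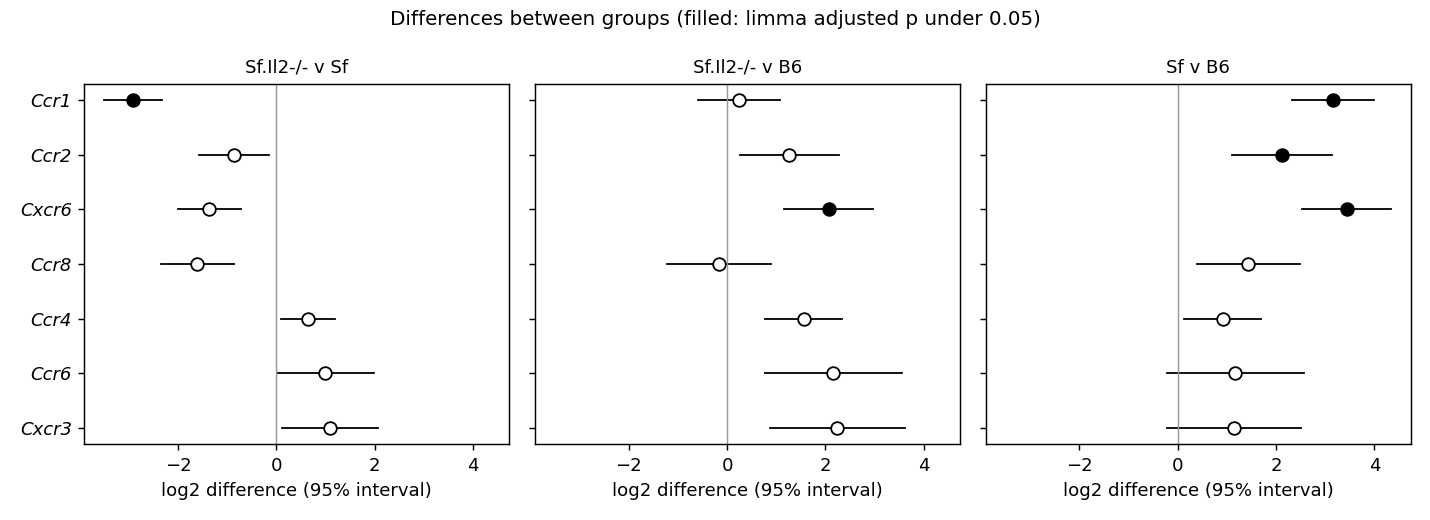
Log2 differences of the 7 tested members with 95% intervals from limma, for Sf.Il2-/- v Sf, Sf.Il2-/- v B6 and Sf v B6. Filled points have an adjusted p under 0.05. Ccr1 is filled for Sf.Il2-/- v Sf and Sf v B6, Cxcr6 for both comparisons with B6 and Ccr2 for Sf v B6, while Ccr4, Ccr6 and Cxcr3 lie right of 0 in every panel without passing.

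Counted over the 7 tested members, 0 rose and 1 (Ccr1) fell in Sf.Il2-/- relative to Sf, where 0.0436% of the 11460 tested genes were called higher and 0.236% lower. At an unadjusted p under 0.05 by limma 3 members were higher and 4 lower, where 7.92% of all tested genes passed in either direction. The members' median difference was -0.86, against 0.08 over all tested genes. The arrays of Sf.Il2-/- and Sf did not overlap for 5 members, 4 of them lower (Ccr1, Ccr2, Ccr8 and Cxcr6) and 1 higher (Ccr4), where 3.72% of tested genes did not overlap and were lower and 8.39% did not overlap and were higher. With the replicate numbers as a block 2 members passed, Ccr1 and Ccr8, both lower. Called over all genes in that fit were 15 higher and 45 lower, against 5 higher and 27 lower in the fit of 7 arrays. Without Sf replicate 3, 4 members passed, with Ccr1, Ccr8 and Cxcr6 lower and Cxcr3 higher. Over all genes 672 were then higher and 200 lower, against 5 higher and 27 lower with that array, so the balance of directions turned on it.

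Relative to B6, 1 member (Cxcr6) rose and 0 fell in Sf.Il2-/-, where 1.49% of tested genes were called higher and 1.2% lower. The members' median was 1.56, against -0.14 over all tested genes. At an unadjusted p under 0.05 by limma 5 members were higher and 0 lower, where 18.6% of all tested genes passed in either direction. In 6 members all 3 Sf.Il2-/- arrays lay above the B6 array, as did 24.7% of tested genes. Among the 6 was Ccr1, at 3.92 to 4.23 against 3.78 in B6, at the edge of the floor where values carry no order. In Sf, 3 members rose (Ccr1, Ccr2 and Cxcr6) and 0 fell, where 1.31% were called higher and 1.16% lower, and the members' median was 1.44, against -0.25 over all tested genes. All 3 Sf arrays lay above the B6 array in each of the 7 members, as in 19.6% of tested genes. Without Sf replicate 3 the counts over all genes were 537 higher and 1004 lower in Sf.Il2-/- and 712 higher and 2811 lower in Sf, against 171 higher and 137 lower in Sf.Il2-/- and 150 higher and 133 lower in Sf with it. These 2 comparisons share the B6 array and are not independent of each other.

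The genes whose profiles over the 7 arrays were most like those of the called members were found by the root mean square difference of log2 values after each gene's own mean was subtracted. Nearest to Ccr1 were Ltb4r1, a leukotriene B4 receptor (0.14), Adam8, a surface metalloprotease (0.30), and Cysltr1, a cysteinyl leukotriene receptor (0.42). Ltb4r1 read 4.17, 4.26 and 3.96 in Sf.Il2-/-, against 7.44, 6.82 and 7.08 in Sf and 4.24 in B6, so the Sf arrays were the highest, as for Ccr1. Nearest to Ccr2 were Tmem159 (0.23), Tmbim1 (0.25) and Cdkn1a, the cyclin-dependent kinase inhibitor p21 (0.30). Nearest to Cxcr6 were 5430427O19Rik (0.29), Mt1, a metallothionein (0.35), and Gm4951 (0.40).

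The ligands of these receptors were followed in the same cells. Of 20 ligand genes, 9 were bright enough to be tested. In Sf.Il2-/- relative to Sf 1 rose, 0 fell and 8 did neither, where 0.0436% of all tested genes were called higher and 0.236% lower. The gene that rose was Ccl4, an inflammatory chemokine made by activated T cells, at 7.99, 9.77 and 8.67 in Sf.Il2-/-, against 5.91, 5.83 and 6.49 in Sf and 4.53 in B6 (difference from Sf 2.74, adjusted p = 0.0322). Ccl5, a ligand of Ccr1 and Ccr3, read 11.81, 12.58 and 12.55 in Sf.Il2-/-, against 8.33, 7.89 and 10.52 in Sf and 8.30 in B6, and its difference from Sf of 3.40 did not pass (adjusted p = 0.0547). Ccl3, another ligand of Ccr1, read 5.31, 8.32 and 7.33 in Sf.Il2-/-, against 2.69, 3.00 and 5.48 in Sf and 2.46 in B6 (difference from Sf 3.26, adjusted p = 0.31). Ccl4 and Ccl5 were higher in every Sf.Il2-/- array than in any Sf array, while for Ccl3 Sf replicate 3 lay above Sf.Il2-/- replicate 1. Ccr1 was at the edge of the floor in these Sf.Il2-/- arrays.

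Ccl1, a ligand of Ccr8, had its highest values in Sf, as did Ccr8. It read 5.49, 5.01 and 4.80 in Sf.Il2-/-, against 7.29, 6.34 and 7.72 in Sf and 2.82 in B6. Ccl1 rose relative to B6 in Sf by 4.29 (adjusted p = 0.00495) and in Sf.Il2-/- by 2.28 (adjusted p = 0.0487), sizes that are not exact because B6 was near the floor. Its difference of -2.02 between Sf.Il2-/- and Sf did not pass (adjusted p = 0.0665). Cxcl10, a ligand of Cxcr3 induced by interferons, read 8.94, 8.81 and 8.97 in Sf.Il2-/-, against 8.56, 9.19 and 9.86 in Sf and 5.63 in B6. It rose in Sf.Il2-/- by 3.28 (adjusted p = 0.00767) and in Sf by 3.57 (adjusted p = 0.00562), and the mutant groups overlapped. Relative to B6, 4 of the 9 ligands rose in Sf.Il2-/- (Cxcl10, Ccl4, Ccl5 and Ccl1) and 0 fell, where 1.49% of all tested genes were called higher and 1.2% lower. In Sf 2 rose (Ccl1 and Cxcl10) and 0 fell, where 1.31% were called higher and 1.16% lower. The list's medians were -0.04, 2.28 and 0.98 in the Sf.Il2-/- v Sf, Sf.Il2-/- v B6 and Sf v B6 comparisons. Over all tested genes the medians were 0.08, -0.14 and -0.25.

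Among 15 other chemokine receptors, 13 had a probe set here and 6 were tested. Of these 0 passed between Sf.Il2-/- and Sf by limma (1 at an unadjusted p under 0.05, as 7.92% of all tested genes), with a median of -0.03. Between Sf and B6 0 passed by limma (3 at an unadjusted p under 0.05, as 22.5% of all tested genes), with a median of 0.33. In Sf.Il2-/- relative to B6 1 rose and 1 fell, where 1.49% of all tested genes were called higher and 1.2% lower. The list's median there was 0.22, against -0.14 over all tested genes. Cxcr5, which draws T follicular helper cells to B cell follicles, read 9.52, 9.94 and 9.52 in Sf.Il2-/-, against 7.65, 6.77 and 8.52 in Sf and 6.70 in B6. It rose by 2.96 over B6 (adjusted p = 0.0261), and its difference of 2.02 from Sf did not pass (adjusted p = 0.099). Ccr7, the lymph node homing receptor of naive T cells, read 9.20, 10.06 and 10.06 in Sf.Il2-/-, against 9.68, 9.75 and 10.31 in Sf and 11.51 in B6. It fell by 1.74 in Sf.Il2-/- (adjusted p = 0.0499), at the threshold, and its difference of -1.60 in Sf did not pass (adjusted p = 0.0641). Cxcr4, the CXCL12 receptor, read 8.84, 9.08 and 8.89 in Sf.Il2-/-, against 9.01, 9.48 and 8.78 in Sf and 7.86 in B6.

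**Figure D4:**
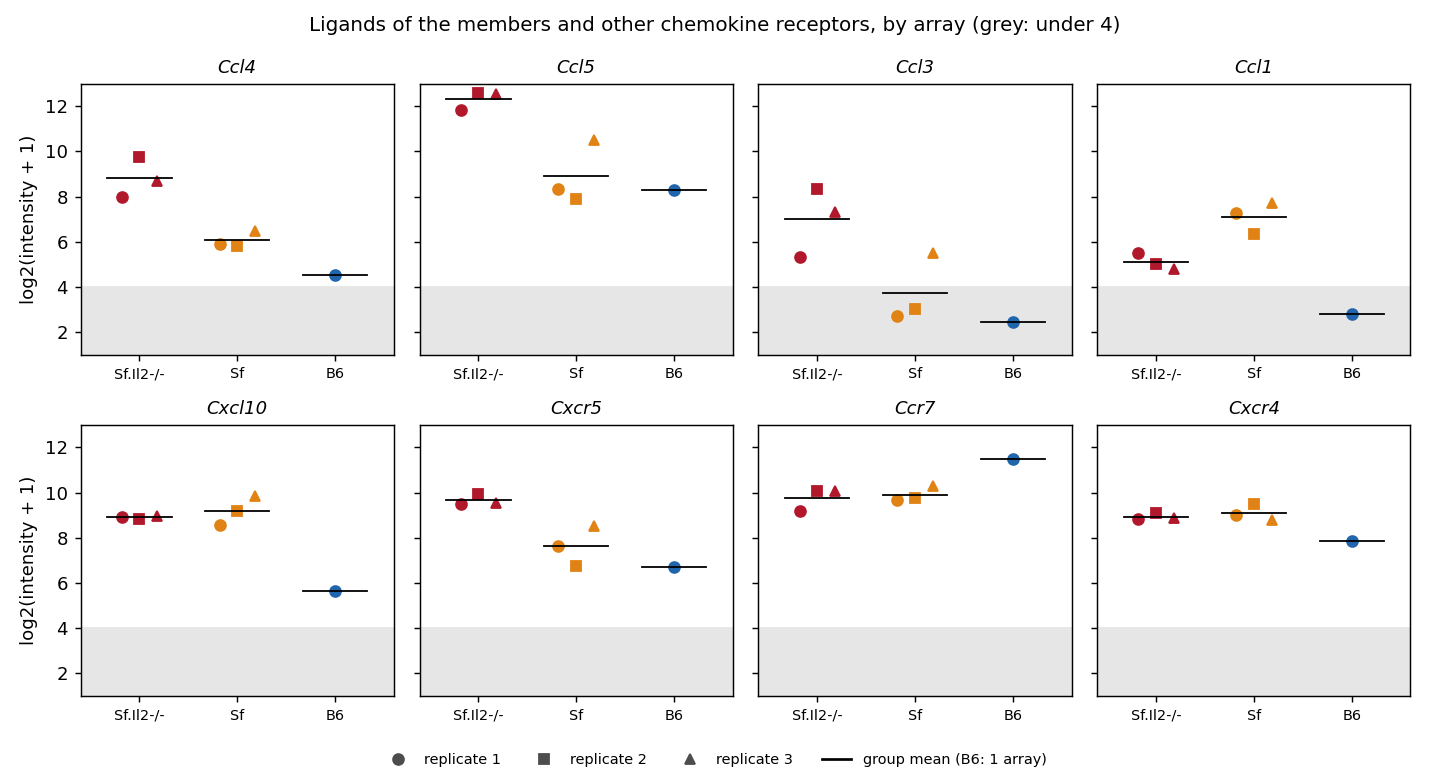
Ligands of the members (Ccl4, Ccl5, Ccl3, Ccl1 and Cxcl10) and other chemokine receptors (Cxcr5, Ccr7 and Cxcr4) as log2(intensity + 1), by array, with Sf.Il2-/- left, Sf in the middle and B6 right. Lines are group means and grey marks values under 4. Ccl4, Ccl5 and Cxcr5 are highest in the 3 Sf.Il2-/- arrays, Ccl3 overlaps between Sf.Il2-/- and Sf, Ccl1 is highest in Sf, and Ccr7 is highest in the B6 array at 11.51.

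Genes that carry or end the signal of these receptors were followed as a list, of which 24 were tested. Between Sf.Il2-/- and Sf 0 passed by limma, where 0.0436% of all tested genes were called higher and 0.236% lower. At an unadjusted p under 0.05 by limma 2 passed, a share near the 7.92% of all tested genes. The list's differences ran from -0.60 to 0.61. Rgs1, which shuts off G protein signalling from chemokine receptors, read 10.84, 9.95 and 10.71 in Sf.Il2-/-, against 10.99, 11.54 and 10.78 in Sf and 8.75 in B6. It rose over B6 by 1.75 in Sf.Il2-/- (adjusted p = 0.0487) and by 2.36 in Sf (adjusted p = 0.018). In Sf.Il2-/- Gng2, a G protein gamma subunit, also rose, by 1.54 (adjusted p = 0.0482), while Pik3r5, a regulatory subunit of phosphoinositide 3-kinase gamma, fell by 2.05 (adjusted p = 0.0258) and Rgs14 fell by 1.59 (adjusted p = 0.0478). In Sf, Pik3r5 fell by 1.98 (adjusted p = 0.027), Rgs14 fell by 1.83 (adjusted p = 0.0269) and Rgs10 fell by 1.30 (adjusted p = 0.0457). The list's medians were 0.18, -0.44 and -0.44 in the Sf.Il2-/- v Sf, Sf.Il2-/- v B6 and Sf v B6 comparisons. Over all tested genes the medians were 0.08, -0.14 and -0.25.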

How the data were processed

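Affymetrix arrays of sorted CD4+ T cells were used in 3 groups, Sf.Il2-/- (3 arrays), Sf (3) and B6 (1). The deposited table holds the authors' processed intensity, not logged, of 45037 probe sets per array. Per the submitters' processing notes the tools were GCRMA and GCOS, with no version, order or parameters. No 2 arrays shared over 0.535% identical values.

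The array annotation names 1 gene for 34945 probe sets, several for 932 and none for 9160, and 34741 symbols were updated through Entrez numbers (GRCm38.p6). Log2(intensity + 1) of each gene's brightest probe set was tested where the highest group mean was at least 5, which left 11460 of 18193 genes. One model of the 3 group means was fitted to the 7 arrays with lmFit, and eBayes with trend gave the p-values (limma 3.58.1, R 4.3.3, with 4 residual and 9.57 total degrees of freedom), followed by Benjamini-Hochberg adjustment over all tested genes at 0.05. The B6 array is assumed to vary like the mutant arrays, and precision is limited by how few arrays there are. Titles call the replicates biological, and the p-values cover the spread between these arrays. Before use the fit was tested on simulated data, for Sf.Il2-/- v Sf only and with noise independent between arrays. That test does not cover the comparisons with the B6 array, nor arrays whose deviations are correlated.

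The members and gene lists were chosen with earlier results of these data known. Named genes are the members, list members past the threshold (up to 6 per list and comparison, or the 1 with the lowest p), the 3 genes nearest to each called member, genes between members on the chromosome, and Foxp3 and Il2. Ccl3, Ccl5, Ccr7, Cxcr4, Fyco1 and Ltb4r1 are given in full after their values were seen. Array sets were divided at the largest gap between upper quartiles. Deviations from group means of same-numbered Sf.Il2-/- and Sf arrays correlated at 0.301, 0.211 and 0.505 over genes, all above 0.1. Of the unlike-numbered arrays, Sf.Il2-/- replicate 1 with Sf replicate 2 (0.333) and Sf.Il2-/- replicate 2 with Sf replicate 1 (0.111) exceeded 0.1 too. The remaining unlike-numbered pairs were negative. Same-numbered arrays also share an array set, so this check cannot tell a pairing from the array set. The titles state no pairing. The replicate block is therefore only another setting, and its values are given where they change a call. Other settings tried are in the closing section. Promoter sequences are RefSeq's. Figures were drawn with matplotlib 3.10.9.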

Additional observations from a re-analysis of the deposited data

How the results depend on the processing

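Of 366 values of member differences under other settings, 4 changed sign, 20 newly passed, 11 no longer passed and 5 moved by more than the replicate spread within an array set. The other 326 kept their direction. Those of the 326 with a test kept their side of the threshold. Those within an array set have no test and moved by less than the replicate spread. The 4 were all of Ccr8 in Sf.Il2-/- v B6. This difference was 0.33 within array set 2, 0.42 with the array set as a block and 0.054 without Sf.Il2-/- replicate 2. It was also 0.054 without Sf replicate 1 and Sf.Il2-/- replicate 2, the 2 arrays with the highest S100a8 and S100a9 values. Leaving out each replicate gave -0.42 to 0.054 for it. Ccr1 passed under every setting with a test in Sf.Il2-/- v Sf (differences -3.09 to -2.11) and in Sf v B6 (2.15 to 3.33), as did Cxcr6 in Sf v B6 (3.17 to 3.91, within array sets included).

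The members past the threshold in Sf.Il2-/- v Sf were 1. They were 2 after quantile normalization, 2 with the replicate block over the 6 mutant arrays and 3 with the array set block. Without Sf replicate 1 and Sf.Il2-/- replicate 2 they were 2. Leaving out each replicate gave 1 to 4. In Sf.Il2-/- v B6 the count of 1 was 0 without a filter, and leaving out each replicate gave 0 to 4. It was 3 after quantile normalization, with the array set block, or without both Sf replicate 1 and Sf.Il2-/- replicate 2. In Sf v B6 the count of 3 was 2 without a filter, with median centring, without the trend or with each probe set as a row, 4 with the array set block, and 2 to 4 on leaving out each replicate. Ccr2 was the member lost, with an adjusted p of 0.0811 without a filter, 0.0525 with median centring and 0.0595 without the trend. On leaving out a replicate, the 4 in each comparison came without Sf replicate 3, which leaves no Sf array in set 2.

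Counts over all genes moved too. In Sf.Il2-/- v Sf the 32 genes were 11 without a filter, 60 with the replicate block, 74 with the array set block and 17 with each probe set as a row. They were 33 after quantile normalization, 48 without both Sf replicate 1 and Sf.Il2-/- replicate 2, and 8 to 872 on leaving out each replicate. In Sf.Il2-/- v B6 the 308 genes were 138 without a filter, 723 after quantile normalization and 721 with the array set block. They were 288 without both Sf replicate 1 and Sf.Il2-/- replicate 2, and 129 to 1541 on leaving out each replicate. In Sf v B6 the 283 genes were 161 without a filter, 554 after quantile normalization, 188 with the mean of probe sets and 605 with the array set block. They were 276 with median centring, 203 without the trend, 213 with each probe set as a row, and 116 to 3523 on leaving out each replicate. The highest count of each comparison came without Sf replicate 3. The cause was not tested. Quantile normalization gave 484 higher and 239 lower in Sf.Il2-/- v B6 and 391 higher and 163 lower in Sf v B6, against 171 higher and 137 lower and 150 higher and 133 lower as deposited. The replicate block changed the call of Ccr8 in Sf.Il2-/- v Sf and of no other member. Near the floor, below about 4 on the log2 scale, sizes are not measured.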

Other observations

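Transcription factors tied to these receptors in T helper cells were followed as a list, of which 22 of 24 were tested. Their median between Sf.Il2-/- and Sf was 0.13, against 0.08 over all tested genes. In that comparison 1 fell, 0 rose and 21 did neither, where 0.236% of all tested genes were called lower and 0.0436% higher. The gene was Ahr, the aryl hydrocarbon receptor, which fell by 1.53 (adjusted p = 0.0436), at 6.85, 7.50 and 7.25 in Sf.Il2-/-, against 8.73, 8.47 and 8.98 in Sf and 6.49 in B6. Bhlhe40, a factor of effector T helper cells, was high in both mutant groups, at 10.07, 10.09 and 10.34 in Sf.Il2-/-, against 9.89, 10.40 and 11.06 in Sf and 6.04 in B6. It rose over B6 by 4.13 in Sf.Il2-/- (adjusted p = 0.00172) and by 4.41 in Sf (adjusted p = 0.00166), while Ccr1 rose in Sf and read near the B6 level in Sf.Il2-/-.

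Relative to B6, 5 of the 22 rose in Sf.Il2-/- (Bhlhe40, Maf, Batf, Eomes and Rora) and Foxo1, which maintains naive T cells, fell by 1.84 (adjusted p = 0.0176). In Sf, 4 rose (Bhlhe40, Maf, Ahr and Nfil3) and Foxo1 fell by 1.93 (adjusted p = 0.0153). Of all tested genes, 1.49% were called higher and 1.2% lower in Sf.Il2-/-, and 1.31% higher and 1.16% lower in Sf. Eomes, a T-box factor of effector and memory cells, read 8.82, 9.66 and 9.90 in Sf.Il2-/-, against 7.95, 7.29 and 8.46 in Sf and 6.94 in B6, and rose over B6 by 2.52 in Sf.Il2-/- (adjusted p = 0.0346). The list's medians were 0.50 in Sf.Il2-/- v B6 and 0.82 in Sf v B6, against -0.14 and -0.25 over all tested genes.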
